A study of Mus musculus with 8 samples.

Results

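The vascular endothelial growth factor (VEGF) family was followed through 10 genes in retinas with choroidal neovascularization. They were the 5 ligand genes Vegfa, Vegfb, Vegfc, Vegfd and Pgf, the 3 receptor tyrosine kinase genes Flt1, Kdr and Flt4, and the 2 neuropilin co-receptor genes Nrp1 and Nrp2. The genes were taken by symbol from the deposited count table, where all 10 had a row among 25477 genes. They were not picked by their values, but earlier results of these data were known when they were chosen. Messenger RNA had been sequenced from 4 retina samples labelled PD-L1 knockout and from 4 labelled control, whose titles call them WT; every title carries CNV, the abbreviation of choroidal neovascularization. PD-L1, encoded by Cd274, is the surface ligand that restrains immune cells through the receptor PD-1, and the series asks what its loss does to neovascularization. Several facts of the design are missing here. They are the knockout allele, the strain, age and sex of the mice, the way and time of inducing neovascularization, and whether choroid or pigment epithelium stayed on the retina, and none of these is given in the sources used here. The labels do not tie the samples to separate animals, so a p-value here reflects the spread among the 8 libraries, part of which may be technical.

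Choroidal neovascularization is the growth of vessels from the choroid, the vascular layer outside the retina, through the pigment epithelium. VEGF-A, made in the eye by pigment epithelium, Müller glia and other retinal cells and induced by low oxygen, is the ligand that drugs against this disease block. It signals mainly through VEGFR2 (Kdr) on endothelium. VEGFR1 (Flt1) binds VEGF-A tightly but signals weakly, and its soluble form acts as a trap. PlGF (Pgf) and VEGF-B bind VEGFR1 and not VEGFR2, while VEGF-C and VEGF-D act through VEGFR3 (Flt4), the receptor of lymphatic growth, and after processing through VEGFR2. Neuropilins hold VEGF at the cell surface beside the kinases, and also serve as receptors of class 3 semaphorins.

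The samples carried markers of retinal neurons: 12 genes of ganglion, amacrine, horizontal and bipolar cells summed to 1494 to 1604 CPM (counts scaled to equal library size) in knockout retinas and to 1297 to 1862 CPM in control retinas. Total counts ran from 34065854 to 36438248 in the libraries of knockout retinas and from 31743404 to 34054268 in those of control retinas. Cd274 had 9 to 15 counts in knockout retinas and 117 to 165 in control retinas (two-sided exact permutation p = 0.0286, the lowest value possible with 70 arrangements). Lens markers summed to over 100 CPM in knockout 3, control 2 and control 3, at 2159, 5260 and 1464 CPM, and to at most 38.5 CPM in the other libraries. Control 4 weighed most on the comparison: 430 of 16861 genes passed with all 8 libraries, and 3209 of 17146 without it.

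None of the 10 VEGF genes passed the test in knockout against control retinas (edgeR quasi-likelihood test, Benjamini-Hochberg adjusted p under 0.05 over all genes tested). All 10 were tested, against 2.55% of all tested genes that passed, 1.2% as higher and 1.35% as lower. In none of the 10 did the knockout values lie wholly apart from the control values, as they did in 11% of all tested genes, 5.19% with the knockout higher and 5.78% with it lower. At an unadjusted p under 0.05 stood Kdr and Pgf, where 21.3% of all tested genes stood. The median log2 fold change, knockout over control, was 0.17 over the 10 genes and -0.00 over all tested genes. With DESeq2, none of the 10 passed either. In bulk retina, fewer cells of a type and less RNA per cell cannot be told apart, here and in all that follows.

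**Figure D1:**
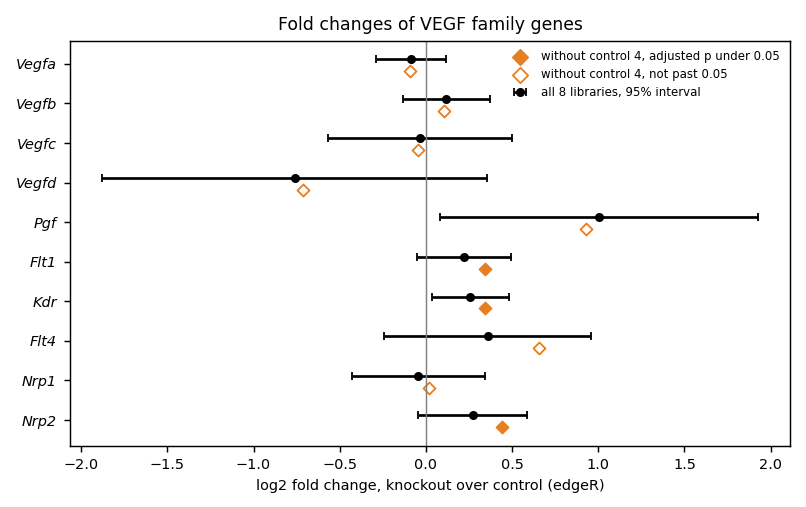
Log2 fold change of each VEGF gene, knockout over control, with all 8 libraries (black points, bars the 95% intervals) and without control 4 (diamonds, filled where the adjusted p was under 0.05). Only the intervals of Pgf and Kdr lie above 0 with all libraries, neither past the adjusted threshold, and Flt1, Kdr and Nrp2 are filled.

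The family spanned a wide range of transcript levels. Set per gene length, as FPKM (fragments scaled by gene length and library total) averaged over all 8 libraries, Vegfa led at 47.5 ± 4.18, followed by Vegfb at 24.2 ± 2.68 and Kdr at 19.8 ± 2.81 (SD, n = 8). Flt1 stood at 6.08 ± 0.960 FPKM and Nrp2 at 2.08 ± 0.376 FPKM. Then came Vegfc at 1.04 ± 0.160, Nrp1 at 0.993 ± 0.189, Flt4 at 0.603 ± 0.190, Pgf at 0.462 ± 0.261 and Vegfd at 0.169 ± 0.102 FPKM. Vegfa was above Vegfb, Kdr above Flt1, Flt1 above Nrp2 and Nrp2 above Vegfc in all 8 libraries, with ranges that did not overlap. Vegfb was above Kdr in 7 of 8 libraries and Vegfc above Nrp1 in 4 of 8, and the ranges of these pairs overlapped. Nrp1 was above Flt4 in 8 of 8 libraries, Flt4 above Pgf in 6 and Pgf above Vegfd in 7, again with overlapping ranges over the libraries. Within a library Vegfa was 43.2 to 200.5 times the Pgf level in knockout retinas and 107.1 to 239.4 times in control retinas. Kdr was 2.99 to 3.96 times the Flt1 level in knockout retinas and 3.03 to 3.38 times in control retinas. The counts are per gene, so the splice forms of Vegfa and the soluble form of Flt1 are not told apart.

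**Figure D2:**
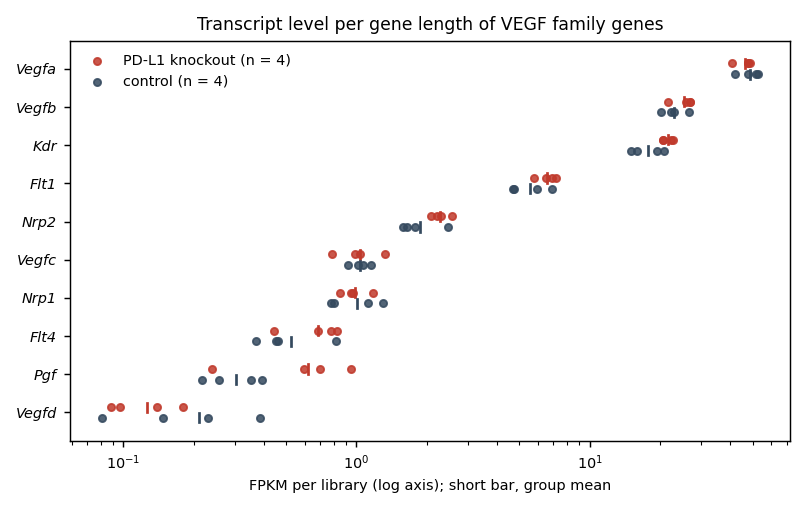
FPKM of each VEGF gene in every library on a log axis, with knockout libraries (n = 4) above control libraries (n = 4) and short bars at the group means. Vegfa and Vegfb lie above 20 FPKM, Kdr between 15.1 and 22.8, and Vegfd at 0.387 or less.

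Among the ligands, Vegfa (Entrez gene 22339, GRCm38 chromosome 17, 46016993 to 46032377), the main driver of vessel growth, was measured most precisely. Its level was 196, 200, 174 and 199 CPM in knockout libraries 1 to 4, and 216, 223, 177 and 201 CPM in control libraries 1 to 4. The groups overlapped, and the lowest library of each group was number 3. The log2 fold change was -0.09 (SE 0.09, adjusted p = 0.615), and its 95% interval covered folds from 0.818 to 1.08. A rise of Vegfa transcript by more than 1.08-fold in knockout retinas thus lay outside the interval.

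Vegfb (Entrez gene 22340, chromosome 19, 6982472 to 6987651), a ligand of VEGFR1 with little angiogenic action of its own, had overlapping groups. It stood at 26.9, 34.5, 35.3 and 32.8 CPM in knockout retinas, against 25.8, 34.8, 29.8 and 28.8 CPM in control retinas. Library 1 was the lowest of its group in both. The log2 fold change was 0.12 (SE 0.12, adjusted p = 0.582).

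Pgf (Entrez gene 18654, chromosome 12, 85166637 to 85177785), the placental growth factor, had the largest difference of the family and rested on few reads. It had 52, 18, 75 and 45 counts in knockout retinas and 15, 25, 28 and 19 in control retinas. In CPM these were 1.47, 0.522, 2.10 and 1.29 in knockout retinas and 0.470, 0.785, 0.863 and 0.562 in control retinas. Knockouts 1, 3 and 4 lay above every control, and knockout 2 lay within the range of the controls. The log2 fold change was 1.00 (SE 0.43, adjusted p = 0.203), with a 95% interval of folds from 1.06 to 3.80. It was 1.26 without knockout 2 (adjusted p = 0.132) and 0.70 without knockout 3 (adjusted p = 0.487). Set against Vegfa in the same library, the log2 ratio of Pgf to Vegfa was -7.32 ± 0.926 in knockout retinas and -8.29 ± 0.494 in control retinas (SD, n = 4 each; two-sided exact permutation p = 0.143, adjusted p = 0.200 over 7 ratios).

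The ligands of VEGFR3 were scarce. Vegfc (Entrez gene 22341, chromosome 8, 54077532 to 54186454) had 51 to 85 counts in knockout retinas and 56 to 69 in control retinas, and a log2 change of -0.03 (SE 0.25, adjusted p = 0.955). Vegfd (Entrez gene 14205, chromosome X, 164373522 to 164402650) had 14, 7, 8 and 11 counts in knockout retinas and 28, 6, 11 and 18 in control retinas. The controls thus held both its lowest and its highest library, and its log2 fold change of -0.76 carried an SE of 0.52 (adjusted p = 0.409). Its 95% interval, folds from 0.272 to 1.28, is wide, and the log2 fold change ran from -1.02 to -0.31 when 1 library was left out. Vegfd lies on the X chromosome; Xist, the RNA of the inactive X, was present in all 8 libraries, at 2732 to 3462 CPM in knockout retinas and 3215 to 5152 CPM in control retinas. Kdm5d, a gene of the Y chromosome, had 13.1 to 27.2 CPM in knockout retinas and at most 0.126 CPM in control retinas, while Eif2s3y, also on the Y, stayed at or under 0.188 CPM in all 8. The part of the sex of the samples in the Vegfd values was not tested.

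**Figure D3:**
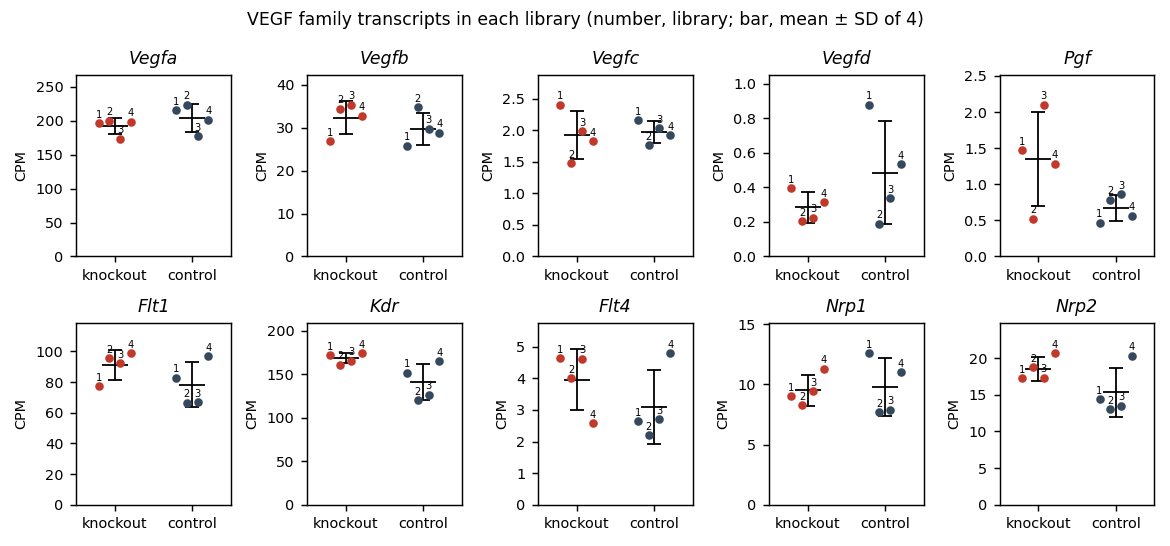
CPM of the 10 VEGF genes in each library on linear axes from 0, knockout left and control right, with the library number beside each point and the mean ± SD of 4 libraries. Knockout and control overlap in every panel, and control 4 stands with the knockouts for Flt1, Kdr and Nrp2.

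Among the receptors, Kdr (Entrez gene 16542, chromosome 5, 75932827 to 75979072), the main signalling receptor of VEGF-A, was at 172, 161, 166 and 174 CPM in knockout retinas, against 152, 120, 127 and 165 CPM in control retinas. Controls 1, 2 and 3 lay below every knockout, and control 4 lay inside the knockout range. The knockout libraries spanned a narrower range, around a mean of 169 CPM, than the controls, around a mean of 141 CPM. The log2 fold change was 0.26 (SE 0.10, adjusted p = 0.180), with an unadjusted p of 0.0271 from edgeR and a 95% interval of folds from 1.02 to 1.40.

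Flt1 (Entrez gene 14254, chromosome 5, 147561604 to 147726438), the high-affinity receptor and trap of VEGF-A, was at 77.3, 95.7, 92.4 and 98.9 CPM in knockout retinas and 82.8, 66.5, 66.7 and 96.9 CPM in control retinas. Controls 2 and 3 were the lowest libraries, and control 4 was second to knockout 4. Its log2 fold change was 0.22 (SE 0.13, adjusted p = 0.328). The ratio of Flt1 to Kdr in CPM was 0.449 to 0.593 in knockout retinas and 0.526 to 0.587 in control retinas, a log2 difference of -0.04 (two-sided exact permutation p = 0.886, adjusted p = 0.886 over 7 ratios).

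Flt4 (Entrez gene 14257, chromosome 11, 49609679 to 49652739), which encodes VEGFR3, was at 4.64, 4.00, 4.62 and 2.57 CPM in knockout retinas and 2.63, 2.20, 2.71 and 4.79 CPM in control retinas. The groups traded places in number 4, where the control was the highest of all 8 libraries and the knockout the lowest of its group. The log2 fold change was 0.36 (SE 0.28, adjusted p = 0.472), and 0.65 without control 4 (adjusted p = 0.0845). Of 5 lymphatic markers 4 were tested, and Pdpn, which glia also express, rose (log2 fold change 0.59, adjusted p = 0.0214), a call lost without the 3 libraries rich in lens markers. Prox1, a lymphatic regulator that retinal cells also carry, had -0.02 (adjusted p = 0.948), and Reln, a secreted glycoprotein that retinal neurons also make, had 0.25 (adjusted p = 0.557). Lyve1, a hyaluronan receptor also found on macrophages, had a log2 change of 0.14 (SE 0.12, adjusted p = 0.538). Ccl21a, the lymphatic chemokine, was too low to test, at no more than 0.145 CPM in any library.

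Among the neuropilins, Nrp2 (Entrez gene 18187, chromosome 1, 62703317 to 62818692), which also binds VEGF-C, was at 17.2, 18.7, 17.3 and 20.7 CPM in knockout retinas, against 14.4, 13.0, 13.5 and 20.3 CPM in control retinas. As with Kdr, controls 1 to 3 lay below every knockout and control 4 among them (log2 fold change 0.27, SE 0.15, adjusted p = 0.303). Nrp1 (Entrez gene 18186, chromosome 8, 128358591 to 128505476), the neuropilin of arterial endothelium that binds VEGF-A, was at 9.02, 8.29, 9.44 and 11.3 CPM in knockout retinas and 12.6, 7.70, 7.89 and 11.0 CPM in control retinas. The 2 lowest libraries and the highest one were controls, and the log2 fold change was -0.04 (SE 0.18, adjusted p = 0.913).

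**Figure D4:**
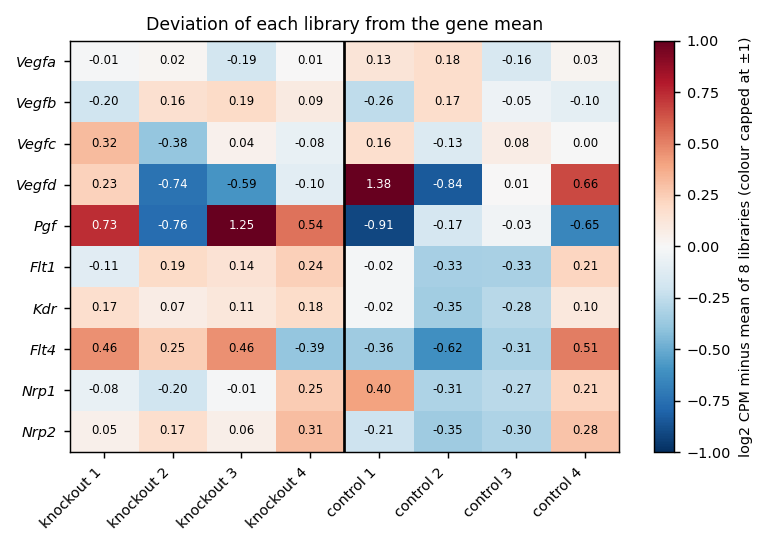
Log2 CPM of each VEGF gene in each library minus that gene's mean over the 8 libraries, knockouts left of the line and controls right of it. Controls 2 and 3 lie between -0.35 and -0.27 for Flt1, Kdr, Nrp1 and Nrp2, and control 4 between 0.10 and 0.28 for the same genes.

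Flt1, Kdr and Nrp2 thus shared their lowest libraries. Controls 2 and 3 were the lowest of the 8 in all of them, and in Nrp1 as well, and control 4 lay among the knockouts. Without control 4 these genes passed the test as higher in knockout retinas: Kdr with a log2 change of 0.34 (SE 0.09, edgeR adjusted p = 0.0189), Flt1 with 0.34 (SE 0.11, adjusted p = 0.0373) and Nrp2 with 0.44 (SE 0.11, adjusted p = 0.0149). These 3 of 10 genes are to be read against 10.5% of all tested genes called higher in that fit, and 18.7% called in either direction. Leaving out a control that lay among the knockouts widens the difference of these same genes. The calls are thus no independent support for a difference, and no other left-out library gave a VEGF gene called. Controls 2 and 3 were also the controls rich in lens transcript. Without the 3 libraries of over 100 CPM of lens markers, which leaves 3 knockouts and 2 controls, the log2 fold changes were 0.10 for Kdr, 0.02 for Flt1 and 0.13 for Nrp2, and none of the 10 genes passed (adjusted p of at least 0.710), where 0.0865% of all tested genes did, 0.0403% as higher. Knockout 3, the third library rich in lens transcript, stood above the mean of the 8 libraries for Flt1, Kdr and Nrp2. The part of lens tissue in these values was not tested beyond that, apart from a fit with the log2 lens sum as a covariate. In that edgeR fit Kdr had 0.19 (adjusted p = 0.295), Flt1 0.17 (adjusted p = 0.482) and Nrp2 0.20 (adjusted p = 0.478). Markers of retinal neurons were also high in control 4: the 12 summed to 1513, 1522, 1297 and 1862 CPM in controls 1 to 4, against 1494 to 1604 CPM in knockout retinas. Among them, Gad1, an enzyme of GABA synthesis in amacrine cells, was at 185 to 201 CPM in knockout retinas and at 135, 116, 104 and 267 CPM in controls 1 to 4, chosen after its values were seen. With all 8 libraries none of the 12 was called higher and 1 was called lower; without control 4, 4 were called higher (Gad1, Pou4f1, Slc6a9 and Thy1) and 1 lower. Controls 2 and 3 were thus the lowest for Gad1 as for Flt1, Kdr and Nrp2. Not all of the 12 ran so: control 2 was the highest of the 8 libraries for Nefl, at 531 CPM, and for Pcp2, at 154 CPM. The part of neurons in these values was not tested.

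Because Flt1, Kdr and Nrp2 shared their lowest libraries and passed together without control 4, the letters just before their annotated starts are shown beside those of Vegfa, from the RefSeq annotation of GRCm38.p6. This choice of genes rests on the same values that singled out control 4. All 10 genes matched a RefSeq promoter window. Each line holds 250 bases, 5′ to 3′ on the gene's strand, ending at the base before the start. Capitals mark 4 motifs on either strand: ACGTG and GCGTG, the core letters of the hypoxia response element bound by HIF, GGGCGG, the GC box of Sp1, and CCGGAA, a core of ETS factor sites. Adjoining or overlapping copies run together. The windows are chr17:46032378-46032627 (minus strand) for Vegfa, chr5:147726012-147726261 (minus strand) for Flt1, chr5:75978456-75978705 (minus strand) for Kdr and chr1:62703067-62703316 (plus strand) for Nrp2. Longer RefSeq models of Flt1 and Kdr reach past these starts. Vegfa has a second RefSeq window, chr17:46025164-46025413 (minus strand), inside the gene, whose motif counts follow below and whose letters are not shown.
Vegfa: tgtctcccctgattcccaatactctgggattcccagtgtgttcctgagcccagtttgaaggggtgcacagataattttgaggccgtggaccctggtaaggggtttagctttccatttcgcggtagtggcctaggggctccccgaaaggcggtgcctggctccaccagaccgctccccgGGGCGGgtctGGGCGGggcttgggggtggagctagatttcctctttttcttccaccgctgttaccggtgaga
Flt1: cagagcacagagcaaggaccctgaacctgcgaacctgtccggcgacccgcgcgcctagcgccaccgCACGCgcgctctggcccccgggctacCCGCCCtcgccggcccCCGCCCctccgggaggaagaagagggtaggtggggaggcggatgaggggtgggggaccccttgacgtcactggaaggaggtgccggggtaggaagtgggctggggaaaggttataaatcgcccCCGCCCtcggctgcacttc
Kdr: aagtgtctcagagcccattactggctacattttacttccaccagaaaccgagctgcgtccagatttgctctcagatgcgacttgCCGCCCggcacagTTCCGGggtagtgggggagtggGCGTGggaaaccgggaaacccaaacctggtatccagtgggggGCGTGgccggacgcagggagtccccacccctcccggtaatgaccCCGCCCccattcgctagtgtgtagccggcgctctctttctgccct
Nrp2: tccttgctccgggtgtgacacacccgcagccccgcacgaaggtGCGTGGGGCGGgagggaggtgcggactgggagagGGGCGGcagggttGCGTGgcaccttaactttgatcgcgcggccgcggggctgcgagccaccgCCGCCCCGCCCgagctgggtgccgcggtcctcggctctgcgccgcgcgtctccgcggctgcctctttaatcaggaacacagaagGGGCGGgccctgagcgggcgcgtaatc
GGGCGG was found 2 times before Vegfa, 3 times before Flt1, 2 times before Kdr and 5 times before Nrp2, and 32.7% of the 32851 RefSeq windows of the same length hold it. GCGTG was found 1 time before Flt1, 2 times before Kdr and 2 times before Nrp2, and not in the printed Vegfa window, against 28.2% of all windows. ACGTG was in none of the 4 printed windows (16.6% of all windows), and of these CCGGAA was only before Kdr (12% of all windows). The second Vegfa window held ACGTG 1 time, GCGTG 1 time and GGGCGG 1 time. The GC content was 59.2% for Vegfa, 70.4% for Flt1, 61.6% for Kdr and 72.4% for Nrp2. GGGCGG was also found before Vegfb, Vegfc, Pgf, Flt4 and Nrp1, and GCGTG before Vegfb, Pgf and Nrp1, so these motifs do not set Flt1, Kdr and Nrp2 apart. The shares of all windows are not matched for GC content. These matches describe the letters of the windows and not bound sites.

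VEGF receptors are known chiefly from endothelium, so their levels were set beside endothelial transcripts. Within a library, Kdr alone was 1.58 to 3.02 times the sum of the 18 endothelial markers, and Flt1 0.877 to 1.65 times. Which cells carried the receptors in these samples was not tested. The 18 endothelial markers, all present in the counts and all tested, summed to 85.3, 78.4, 105.4 and 90.1 CPM in knockout retinas and to 50.2, 59.6, 51.5 and 79.5 CPM in control retinas. Control 4 was again the control nearest the knockouts, and lay above knockout 2. Of these markers 2 rose, where 1.2% of all tested genes did, none fell and 16 did not pass, and the median log2 fold change was 0.59, against -0.00 over all tested genes. Vwf, which encodes von Willebrand factor, rose by 1.58 (SE 0.37, adjusted p = 0.0444) and Cd34, a surface sialomucin, by 0.66 (SE 0.16, adjusted p = 0.0444). Both calls were lost without any 1 library other than control 4, with adjusted p from 0.0559 to 0.162 for Cd34 and from 0.0571 to 0.160 for Vwf. Next by p came Ramp2 at 0.90 (edgeR adjusted p = 0.0513) and Esam at 0.48 (adjusted p = 0.102). In 6 of the 18 the knockout values lay wholly above the control values, as in 5.19% of all tested genes. Pecam1, the junction protein most used to mark vessels, had the smallest log2 change of the 18, at 0.04 (SE 0.20, adjusted p = 0.938). Without control 4, 11 of the 18 were called higher, against 10.5% of all tested genes, and without the 3 libraries rich in lens markers none was, against 0.0403%.

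Relative to that endothelial sum, every receptor gene was lower on average in knockout retinas, and none of these ratios passed. Even at the smallest p that 70 arrangements allow, 1 ratio alone could not pass the adjustment over 7 ratios. All 18 markers in the denominator had positive log2 fold changes, while those of the receptor genes themselves ran from -0.04 for Nrp1 to 0.36 for Flt4. The ratios thus do not give the receptor level per endothelial cell. With Vwf left out of the sum, the log2 difference was -0.26 for Kdr and -0.55 for Nrp1 (exact permutation, adjusted p = 0.2 for each). The Kdr ratio was 2.02, 2.06, 1.58 and 1.94 in knockout retinas and 3.02, 2.02, 2.46 and 2.08 in control retinas. Control 1 was the highest, with the lowest endothelial sum, and control 2 lay within the range of the knockouts. The log2 ratio differed by -0.32 (two-sided exact permutation p = 0.0571; adjusted p = 0.150 over 7 ratios), and by -0.21 without control 1. For Flt1 the difference was -0.36 (exact p = 0.0857, adjusted p = 0.150), for Nrp2 -0.30 (exact p = 0.0857, adjusted p = 0.150) and for Flt4 -0.21 (exact p = 0.543, adjusted p = 0.633). Without knockout 3 the Nrp2 difference was -0.19, and the Flt4 difference was -0.32 without knockout 1, -0.01 without knockout 4, -0.35 without control 2 and -0.11 without control 4. The Nrp1 ratio was 0.106, 0.106, 0.0896 and 0.126 in knockout retinas, below all 4 controls at 0.251, 0.129, 0.153 and 0.139. Its log2 difference was -0.61, or -0.40 without control 1 (exact p = 0.0286 with all 8 libraries, the smallest that 70 arrangements allow; adjusted p = 0.150). The 5 ratios share 1 denominator, so they are not independent of each other.

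**Figure D5:**
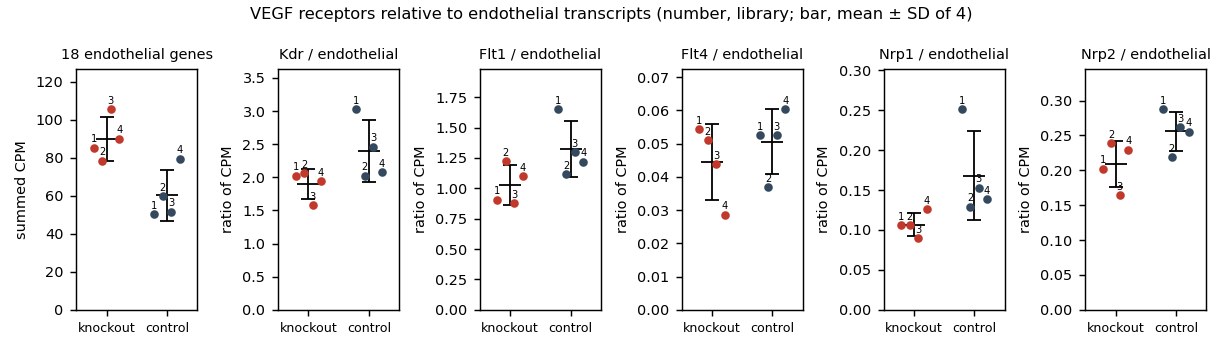
Summed CPM of 18 endothelial markers, and the CPM of 5 VEGF receptor genes divided by that sum, in each library (numbers) with the mean ± SD of 4, on axes from 0, knockout left and control right. The endothelial sums overlap only through control 4, and for Nrp1 alone the knockout ratios all lie below the control ratios.

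Other genes of the VEGF pathway were followed as lists. Of the transducers that carry the signal inside the cell, 33 of 34 were tested and none passed, with a median log2 fold change of 0.11. The smallest p-values were those of Yes1, a Src family kinase, at -0.28 (SE 0.08, adjusted p = 0.0861), and Map2k1, which encodes the ERK-activating kinase MEK1, at 0.33 (SE 0.11, adjusted p = 0.111). Of 19 partners and brakes of the receptors none passed (median 0.25). Gipc1, the adaptor that couples neuropilin to receptor trafficking, had 0.28 (adjusted p = 0.131) and Efnb2, an ephrin that supports VEGF receptor uptake, had 0.36 (adjusted p = 0.134). Of 12 semaphorins and plexins, the other ligands and partners of neuropilins, none passed (median 0.28). Sema3b, at 13.4 ± 1.31 CPM in knockout retinas and 8.49 ± 1.91 CPM in control retinas (SD, n = 4 each), had a log2 change of 0.66 (SE 0.16, edgeR adjusted p = 0.0529), and Sema3c, a class 3 semaphorin as well, had 0.83 (adjusted p = 0.122).

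Of 16 genes that VEGF induces in endothelium 13 were tested, 6 had positive log2 fold changes, none passed and the median was -0.00. Pdgfb, the factor by which vessels recruit pericytes, had 0.66 (adjusted p = 0.180) and Unc5b, a netrin receptor of tip cells, had -0.27 (adjusted p = 0.379). Plvap, the protein of leaky fenestrated endothelium, was at 5.79 ± 0.582 CPM in knockout retinas and 4.77 ± 1.66 CPM in control retinas (SD, n = 4 each; edgeR adjusted p = 0.498), chosen after its value was seen. Among HIF subunits, HIF regulators and hypoxia targets, the upstream inducers and companions of Vegfa, 17 of 18 were tested and none passed (median 0.08). Slc2a1, the glucose transporter of the blood-retinal barrier and a hypoxia target, had 0.39 (SE 0.11, adjusted p = 0.0857) and Egln1, the prolyl hydroxylase that marks HIF for decay, had 0.19 (adjusted p = 0.252). Without control 4, 3 transducers, 5 partners and brakes, 4 semaphorins and plexins and 2 hypoxia genes passed as higher, 1 transducer and 1 brake as lower, and again none of the 13 VEGF-induced genes, where 10.5% of all tested genes passed as higher and 18.7% in either direction.

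Markers of other cells of the retina and its surroundings were summed beside the VEGF values. Müller glia markers summed to 5490 to 7235 CPM in knockout retinas and 4704 to 5927 CPM in control retinas, with 1 of 12 called higher, Clu, a secreted chaperone (log2 fold change 0.83, edgeR adjusted p = 0.00910). Reactive glia genes summed to 884 to 1143 CPM in knockout retinas and 539 to 658 CPM in control retinas, with 8 of 10 called higher. Astrocyte markers summed to 116 to 153 CPM in knockout retinas and 96.7 to 128 CPM in control retinas. Of these 5, Aldh1l1 was called higher (log2 fold change 0.57, edgeR adjusted p = 0.0154), while S100b had -0.77 (adjusted p = 0.0690). Rod markers summed to 42327 to 61036 CPM in knockout retinas and 43453 to 54650 CPM in control retinas, with none of 10 called. Pigment epithelium markers summed to 168 to 353 CPM in knockout retinas and 105 to 296 CPM in control retinas, with 1 of 12 called higher. That was Rgr (log2 fold change 1.06, edgeR adjusted p = 0.0444). The list went both ways: 8 of 12 had positive log2 fold changes, and Tyrp1, Dct, Pmel and Mlana had negative ones. Microglia and macrophage markers summed to 243 to 315 CPM in knockout retinas and 141 to 241 CPM in control retinas, with 7 of 17 called higher, and the control with the lowest sum was control 4. Pericyte markers summed to 80.3 to 90.0 CPM in knockout retinas and 82.7 to 98.6 CPM in control retinas, with none of 11 called. Most of that sum was 1 gene, Rgs5, at a mean of 56.0 CPM in knockout and 65.9 CPM in control retinas. Its log2 fold change was -0.23 (edgeR adjusted p = 0.163), while 7 of the 11 had positive ones (median 0.21). The sum thus does not give the direction of the list. Red cell markers, which follow the blood left in the tissue, summed to 1.68 to 4.03 CPM in knockout retinas and 10.1 to 14.5 CPM in control retinas, and all 4 that could be tested fell. With all 8 libraries 1.2% of all tested genes were called higher and 1.35% lower. The lists were chosen with earlier results of these data known, so a count above that share is no independent test of a cell type. Without control 4, where 10.5% of all tested genes were called higher, 6 Müller glia, 9 reactive glia, 3 pigment epithelium and 9 microglia markers were, and 1 pigment epithelium marker and 4 red cell markers were called lower. In that fit 1 astrocyte marker and 2 rod markers were also called higher, and S100b was called lower. Without the 3 libraries rich in lens markers, where 0.0403% were called higher, 3 reactive glia genes passed as higher and 1 red cell marker as lower. No Müller glia, astrocyte, rod, pigment epithelium or microglia marker passed there. The part of these cells in the VEGF values was not tested.

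The genes whose log2 CPM ran most like those of Vegfa and Kdr over the 8 libraries were looked up among 13271 named genes of at least 1 CPM, as a description of these libraries, which share 2 groups and the differences between single libraries. For Vegfa they were Lsm14b (Pearson r = 0.974), Il18 (r = 0.935), Pdgfa (r = 0.920), Zcwpw1 (r = 0.913) and Ttc16 (r = 0.911). None of them passed in the comparison, with log2 fold changes from -0.20 for Il18, an interleukin, to -0.07 for Lsm14b, an RNA-binding protein gene. For Kdr they were Elovl5 (r = 0.991), Adgrf5 (r = 0.987), Ndnf (r = 0.985), Kdelr2 (r = 0.983) and Pcdhac2 (r = 0.981). Adgrf5, an adhesion receptor of endothelium, was at 7.73 ± 0.661 CPM in knockout retinas and 4.42 ± 1.94 CPM in control retinas (SD, n = 4 each; log2 fold change 0.80, edgeR adjusted p = 0.106). The other 4 had log2 fold changes between 0.08 for Kdelr2 and 0.54 for Pcdhac2, and none passed.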

How the data were processed

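Polyadenylated RNA of 8 retina samples was sequenced, 4 per group. Reads were trimmed with fastp, aligned with HISAT2 to mm10 and counted with HTSeq, per the submitters' processing notes; for versions and the strand setting, the sources used here give nothing. The authors deposited raw counts and FPKM per gene; each deposited FPKM equals the count over the library total and a fixed gene length. Groups came from the sample titles. Counts were scaled by TMM and tested with edgeR 4.0.16 (quasi-likelihood, R 4.3.3) after a low-count filter (minimum count 10, minimum total 15), with Benjamini-Hochberg adjustment over the 16861 genes tested and a threshold of 0.05. CPM are TMM-scaled, and 1 count was worth 0.028 to 0.0314 CPM. Intervals are 95% intervals from the fit. Ratios were tested by exact permutation of the 8 libraries. Alternatives used DESeq2 1.42.0 and limma 3.58.1, other scalings and filters, and left-out libraries. The edgeR step was tested on simulated data. Named were all 10 VEGF genes, Cd274, the 2 pathway genes of smallest p per list, marker genes of smallest p, and the 5 genes most correlated with Vegfa and with Kdr; others are marked or serve as tissue checks. The VEGF genes and the lists were chosen with earlier results of these data known.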

Additional observations from a re-analysis of the deposited data

Results flagged for a closer look

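Of 34 sets of 4 libraries checked for a value far from the rest, 1 held such a value: Vegfa in knockout 3, at 173.9 CPM, where the other knockouts stood at 196.2 to 200.4 CPM. Its gap to the nearest knockout was 0.845 of the group's range, over the critical value of Dixon's test at 95%. Chance gives about 1 in 20 such sets.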

How the results depend on the processing

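Of 208 fold changes of the VEGF genes under 21 alternatives, 200 kept their sign and their side of the threshold. Leaving out 1 library gave 0 to 3 VEGF genes called, the 3 (Flt1, Kdr and Nrp2) without control 4. The same step gave log2 fold changes of -0.16 to 0.066 for Vegfc and -0.14 to 0.10 for Nrp1, so their signs turned. It gave -0.084 to 0.051 for the log2 ratio of Flt1 to Kdr, whose sign also turned, and none of 84 ratio values passed. Some of these could not pass, since too few arrangements remain without the lens-rich libraries. In every setting, 1 ratio alone could not pass the adjustment over 7 ratios. The absence of calls among the ratios is thus no sign of their stability. Of all genes, 203 were called higher and 227 lower. These counts were 336 and 354 without the low-count filter, 609 and 763 with DESeq2, 7 and 8 without the lens-rich libraries, and 128 and 140 with the lens sum as a covariate. Library totals gave 131 lower, log2(FPKM + 1) gave 78 and log2(FPKM + 0.1) gave 103; the share of calls that were higher was then 61.2%, 65.8% and 64.5%. Leaving out 1 library gave 62 to 1806 higher and 46 to 1403 lower. With the title number as a replicate block the counts were 121 and 107, and no VEGF gene passed (Kdr adjusted p = 0.145, edgeR). Same-numbered samples deviated together with correlations of -0.04 to 0.21, against -0.29 to 0.24 for other pairs, so the numbers were not taken to pair the samples. With the block the adjusted p (sign flips within pairs, exact) was 0.35 for the endothelial ratios of Kdr, Flt1, Nrp1 and Nrp2, against 0.150 without it. Sign flips of 4 pairs cannot give a p under 0.05, so no ratio could pass with the block. The rise in adjusted p is thus not a measure of weaker ratios. Under the filter of 1 CPM in at least 4 libraries, Vegfd and Pgf had no value. The cause of these changes was not tested. Depth limits Vegfd, Pgf, Vegfc and Flt4 most.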
